A study of Mus musculus with 72 samples.

Results

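Liver RNA of DBA/2J females on the Control diet was compared with that of C57BL/6J females on the same diet. The 12 libraries, 6 of each strain, were taken by the strain, sex and diet in their titles from 72 libraries of 2 strains, both sexes and 3 diets (Control, Medium Protein and Low Protein), a study of how dietary protein acts in mice of different sex and strain. All mice were 23 weeks old, had started their diet at 10 weeks and stayed on it for 13 weeks at about 22 °C. They had fasted for 16 h before the liver was taken. Neither strain carries a transgene, a deletion or a drug treatment in the labels. The groups compared share sex, diet, age and fast. They differ in strain, and also in the range of the numbers in their titles and in the codes of their descriptions, neither of which is explained in the labels. C57BL/6J replicates 2 and 6 carry 1 number with different letters, and nothing says which mice shared a litter or a cage. The p-values therefore measure only the spread between samples within groups, and the edgeR fit estimated it over all 72 libraries.

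C57BL/6J and DBA/2J are old inbred lines, and mice within a line are close to genetically identical. They are the parents of the BXD panel, in which much of the genetics of mouse liver gene expression has been mapped. Hepatocytes, the main cells of liver, secrete most plasma proteins, turn over foreign compounds, run the urea cycle and switch to fatty acid oxidation and gluconeogenesis in a fast. Each of these programmes is known to carry strain variation in mice.

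Values are CPM, gene-level read counts scaled to a common library total, after TMM scaling, which matches libraries on the bulk of their genes. For each strain the lowest, the median and the highest of its 6 libraries are given. Differences are log2 of DBA/2J over C57BL/6J with their standard error (SE), so that 1 is a doubling in DBA/2J and -1 a halving. A gene is called when its p-value from edgeR's quasi-likelihood test, adjusted by the Benjamini-Hochberg method over all 19362 genes tested, is below 0.05. CPM compare 1 gene between libraries and are not corrected for gene length. In bulk liver, fewer cells of a type and less RNA per cell cannot be told apart.

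The C57BL/6J libraries held 27745114 to 38447505 counts and the DBA/2J libraries 26937177 to 36292177. The strains lay far apart on the first principal component (49.6% of the variance), at -64.7 to -51.5 for C57BL/6J and 55.7 to 59.3 for DBA/2J. C57BL/6J replicate 1 lay apart from its group on the second component (8.71%), at 68.2 against -34.5 to -0.77 for the other 5. List counts and calls that changed much without it are given both ways. Other differences of single genes, such as those of Gpnmb, Mup20, Col1a1 and Pck2, include it. Mitochondrial transcripts, most of them the ribosomal RNA mt-Rnr2, took 22.2 to 24% of the counts in C57BL/6J and 16.9 to 19.0% in DBA/2J, with no overlap. The codes in the sample descriptions run in the order of the groups, so whatever they stand for cannot be told apart from strain.

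Genes with known variants between these lines were looked at first. Hc encodes complement C5, for which DBA/2J carries a frameshift. It was measured at 585, 640.2 and 819 CPM in C57BL/6J and at 209, 259 and 287 in DBA/2J, a log2 difference of -1.38 ± 0.12 (edgeR adjusted p = 8.74e-16). The groups did not overlap. Glo1, the glyoxalase that clears methylglyoxal, lies in a segment duplicated in DBA/2J. Its levels were 85.7, 133 and 159 CPM against 289, 297 and 332, a difference of 1.21 ± 0.12, again with no overlap. Its neighbours Btbd9 (0.41 ± 0.07) and Dnah8 (2.28 ± 0.31) were higher too. Alad, the second enzyme of haem synthesis, also has extra copies in DBA/2J, and stood at 41.6, 55.4 and 74.5 CPM against 119.9, 132 and 157 (1.25 ± 0.12). Its neighbours on 1 side, Hdhd3 (1.66 ± 0.16) and Bspry (1.60 ± 0.29), moved with it. The nearest tested gene on the other side did not pass (-0.17 ± 0.09, edgeR adjusted p = 0.152). Nnt, a mitochondrial proton-pumping transhydrogenase disrupted by a deletion in C57BL/6J, was at 17, 18.6 and 27.9 CPM there and at 31.5, 61 and 81.3 in DBA/2J (1.54 ± 0.22). Every library of these 4 genes fell on the side its strain label gives. Gpnmb, a glycoprotein of macrophages and pigment cells with a nonsense change in DBA/2J, was at 0.0915, 0.341 and 8.54 CPM against 0.0298, 0.0872 and 0.14 (-4.23 ± 0.78), and its groups overlapped. Its highest value was in C57BL/6J replicate 1. Xist, transcribed from the inactive X, was high in all 12 libraries, 1095 to 1437 CPM in C57BL/6J and 1583 to 1824 in DBA/2J. No Y-linked gene checked exceeded 0.135 CPM.

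Of 19362 genes tested, 5385 were called (27.8%): 2666 were higher in DBA/2J (13.8%) and 2719 lower (14.0%). With library totals as scaling 5026 were called, of which 58.4% were higher in place of 49.5%. The shares of 13.8% and 14.0% are the background for each gene list below, and they are not matched to the level of its genes. The median difference over all genes was -0.01. At least 2-fold differences were found for 1918 called genes (9.91%), 939 higher and 979 lower. The 6 and 6 libraries did not overlap for 2409 genes (12.4%), of which 2368 were called (12.2% of all tested). Calls were more frequent among abundant genes: 400 of 977 genes at 100 CPM or more (40.9%, 189 higher and 211 lower) against 1081 of 5691 below 1 CPM (19.0%). For a list of abundant genes the background over all genes is therefore too low. Protein-coding genes were called in 4315 of 14213 cases (30.4%), with a median absolute difference of 0.57. Of 1452 pseudogenes 355 were called (24.4%), 235 higher and 120 lower, with a median absolute difference of 2.19. DBA/2J reads were aligned to a reference whose strain is not given in the sources used here. Its part in the differences was not tested.

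The 15 largest differences in each direction were taken among called, named genes whose groups did not overlap and whose mean over the 12 libraries was at least 1 log2 CPM. Serpina3c, a serine protease inhibitor of the alpha-1-antichymotrypsin family, was measured at 0.176, 0.193, 0, 0, 0.0613 and 0.169 CPM in C57BL/6J replicates 1 to 6. In the 6 DBA/2J livers it reached 89, 205, 91.8, 140.2, 63.1 and 191 CPM, a log2 difference of 10.33 ± 0.63 (edgeR adjusted p = 3.06e-22). Mup1, a major urinary protein that carries pheromones in urine, was at 0.221, 1.8 and 7.05 CPM against 390.5, 598 and 1493 (8.11 ± 0.60). DBA/2J replicate 6 was its highest library. Ctse encodes cathepsin E, an aspartic protease of the endosome, and stood at 0.176, 0.405 and 0.607 CPM against 42.1, 65.4 and 80.9 (7.35 ± 0.28). In all 3 genes, as the rule of choice asks, the lowest DBA/2J library exceeded the highest C57BL/6J library. Pm20d1, close to Ctse and the enzyme that joins fatty acids to amino acids, was higher as well (1.33 ± 0.09). The tested gene that lies between them was lower (-1.24 ± 0.32). The sulfotransferases Sult3a1 (1.56, 82.7 and 139.8 CPM against 851, 971 and 1346) and Sult3a2 (5.25 ± 0.47) add sulfate groups to their substrates. Sult3a1 was lowest in C57BL/6J replicate 1. Their reads may be shared, since their sequences are close, and their sum rose from 76.8 ± 53.7 to 1298 ± 267 CPM (mean ± SD, n = 6 and 6; exact permutation test, p = 0.00216, the smallest this design can give, 0.00361 after adjustment over 10 such sums).

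Hamp2, a paralogue of the iron hormone hepcidin, was higher by 3.84 ± 0.43 (14.7 to 40.6 against 295 to 624 CPM). Rassf4, a Ras-association protein, differed by 3.94 ± 0.25, and Dct, dopachrome tautomerase of pigment synthesis, by 4.11 ± 0.37. The other genes of the 15 largest increases were Mup9 (5.23), Cyp2c39 (4.95), Selenbp2 (4.21), H2-Q2 (4.10), C4a (4.17), Eno1b (5.30) and Tpm3-rs7 (4.37). The last 2 are near-copies of Eno1 and Tpm3, and their reads cannot be assigned with certainty. Eno1 and Eno1b together fell from 256 ± 25.1 to 124 ± 11.8 CPM, and Tpm3 with Tpm3-rs7 from 46.6 ± 2.21 to 36.4 ± 1.81 (n = 6 and 6, exact permutation test, p = 0.00216 each).

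Cyp2a22, a cytochrome P450, had the lowest difference of this set. It was measured at 22.2, 118, 239.5, 179.5, 152 and 194 CPM in C57BL/6J and at no more than 0.0328 CPM in any DBA/2J library (-13.06 ± 0.87). C57BL/6J replicate 1 was its lowest library in that strain. The sum of Cyp2a22 with its close relatives Cyp2a4 and Cyp2a5 was 952 ± 424 CPM in C57BL/6J and 898 ± 382 in DBA/2J (n = 6 and 6, exact permutation test, p = 0.894). Nlrp12, an innate immune sensor that dampens inflammation, was at 39.2, 73.3 and 113 CPM against 0.491, 0.992 and 2.27 (-6.01 ± 0.42). Ildr2, an immunoglobulin-domain receptor, was at 41.8, 76.2 and 113 CPM against 1.12, 1.52 and 2.11 (-5.59 ± 0.40). For both genes the groups lay more than an order of magnitude apart. Cidec, which fuses lipid droplets, was at 8.99, 15.9 and 43.7 CPM against 0.799, 1.1 and 3.08 (-3.73 ± 0.51), highest in C57BL/6J replicate 6. Lpin1, the phosphatidate phosphatase of triglyceride synthesis, was at 138, 260.1 and 357 CPM against 16.7, 18 and 34.1 (-3.63 ± 0.45). Cyp2c23, an arachidonic acid epoxygenase, was lower, at 62.2 to 108 CPM against 5.26 to 7.61 (-3.66 ± 0.23), as was Nnmt, which methylates nicotinamide (-3.07 ± 0.50). The histidine decarboxylase gene Hdc (-4.55), the clock repressor Ciart (-3.77), the securin gene Pttg1 (-3.68) and the secreted protein gene Tsku (-3.27) were also among the 15 lowest. Mndal (-3.83), Tceanc2 (-3.54), Ccdc171 (-3.10) and Zfp970 (-3.05) completed them.

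**Figure D1:**
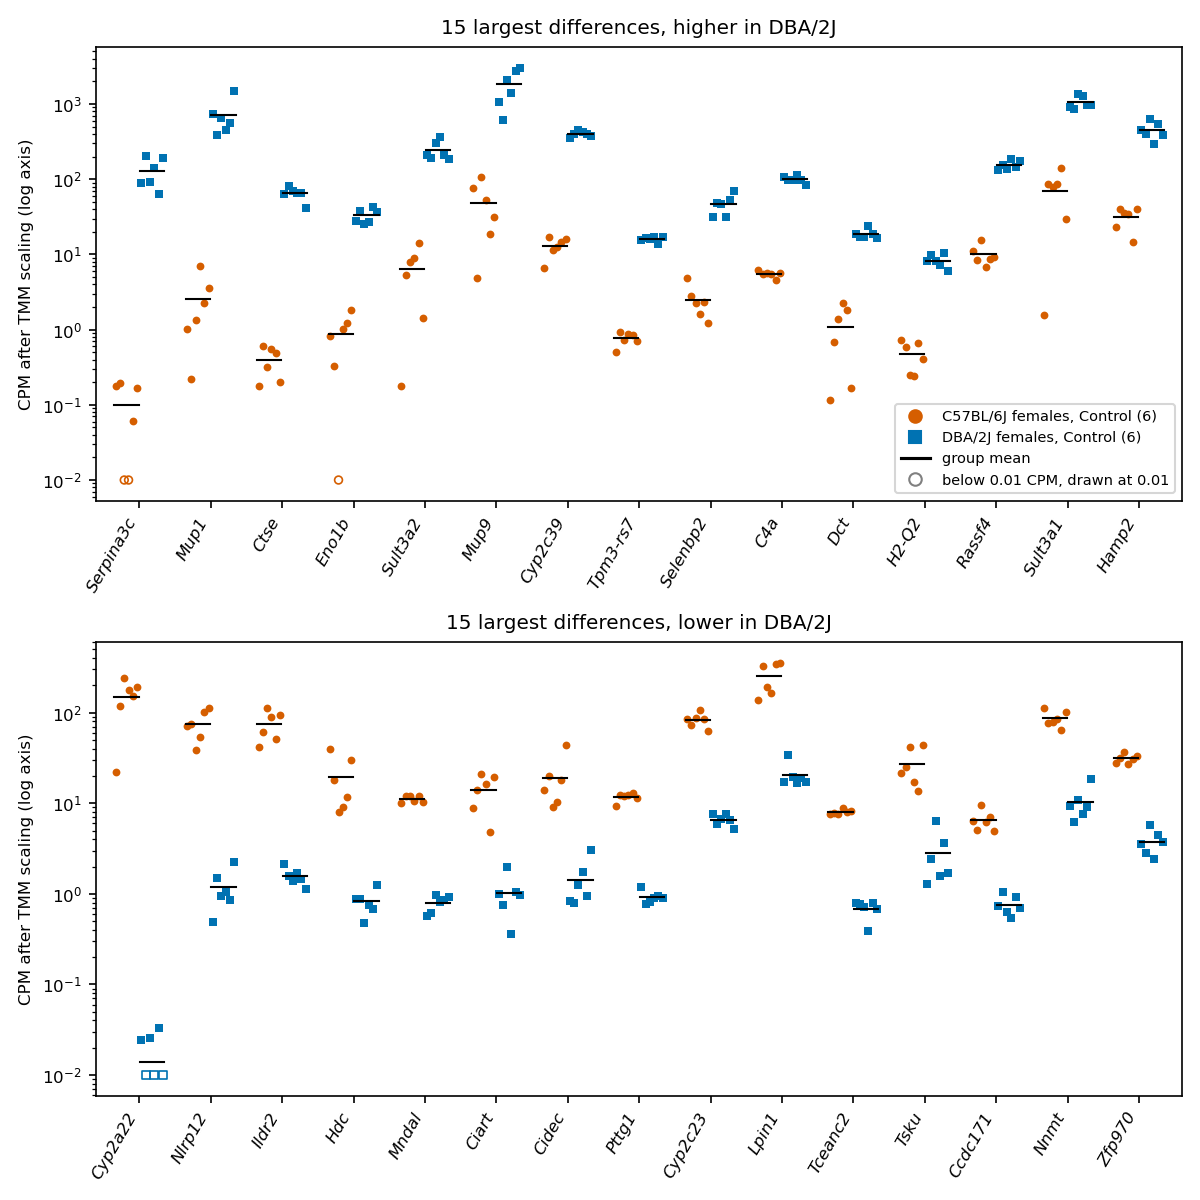
CPM after TMM scaling (log axis) in each library for the 15 genes in each direction chosen by the rule above, C57BL/6J as orange circles and DBA/2J as blue squares, bars at the group means and open symbols for libraries below 0.01 CPM. The rule takes only called, named genes with no overlap and a mean of at least 1 log2 CPM, so the separation of the 30 genes follows from the choice. Serpina3c lies at 0.193 CPM or less in C57BL/6J and at 63.1 to 205 CPM in DBA/2J.

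The genes with the smallest p-values were not always those with the largest differences. Zfp949, a zinc-finger gene, was at 7.43, 8.79 and 9.23 CPM against 37.8, 43.4 and 46.8 (2.32 ± 0.08, edgeR adjusted p = 8.82e-34). Sfi1, a centrosome protein gene, was at 19.3, 23.9 and 24.9 against 93.4, 107 and 115 (2.21 ± 0.09). Sae1, a subunit of the enzyme that activates SUMO, was at 5.85, 7.33 and 7.75 against 30.5, 37.1 and 43.8 (2.35 ± 0.10). The carboxylesterase Ces1b, which hydrolyses esters and drugs, was at 24.9, 35.5 and 41.3 against 307, 421 and 491 (3.60 ± 0.16). In these 4 genes the spread within a strain was small beside the gap between strains. Myo7a, an unconventional myosin, went the other way, from 18.5 to 25.7 CPM to 6.15 to 9.61 (-1.68 ± 0.10). Some genes had no count at all in 1 strain and a mean of at least 1 CPM in the other: 7 in C57BL/6J and 16 in DBA/2J, all of them called. Of these, 2 and 7 were protein-coding. The long non-coding RNA Gm26825 had no count in the 6 C57BL/6J libraries and 202 to 376 CPM in DBA/2J, at least 18881-fold higher against a limit of 3 counts over the group. Gvin1, a very large interferon-inducible GTPase gene, had none in DBA/2J and 29.5 to 56.4 CPM in C57BL/6J, at least 3205-fold higher there. Obp2a, an odorant-binding protein gene with none in C57BL/6J, ranged widely in DBA/2J, from 0.269 to 26.1 CPM. Gm26825, Gvin1 and Obp2a were picked after their values were seen.

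Interferon-stimulated genes were higher in DBA/2J livers. These genes are switched on when cells sense type I or II interferon, and their products block viral replication and present antigen. Of 52 genes of the list tested, 35 were higher and 5 lower, with a median difference of 0.68, against 13.8% higher and 14.0% lower over all genes. The summed level of the list was 673 to 1136 CPM in C57BL/6J and 1397 to 1879 in DBA/2J, with no overlap. Without C57BL/6J replicate 1 the counts were 32 and 6 and the median 0.58. The called increases other than Ifi202b, which had no count in C57BL/6J, ran from 0.37 to 2.13.

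Ifit1, which binds foreign RNA lacking cap methylation, was measured at 4.79, 16.5, 15.8, 16, 16.5 and 8.29 CPM in the 6 C57BL/6J livers. The 6 DBA/2J values were 34.5, 35.1, 40.3, 51.4, 34.1 and 27.1 CPM (1.51 ± 0.25). The lowest DBA/2J library thus lay above the highest of C57BL/6J, and C57BL/6J replicate 1 was the lowest of all. Oas1a, a sensor of double-stranded RNA, was at 1.56, 2.88 and 4.15 CPM against 6.36, 8 and 9.66 (1.48 ± 0.24). Isg15, a ubiquitin-like modifier, was at 1.06, 2.83 and 3.36 against 3.81, 5.59 and 7.76 (1.16 ± 0.25). Neither overlapped. Ifit3, a partner of Ifit1, was higher as well (1.26 ± 0.23). These 4 genes, Bst2, Ifi203, Ifi204 and Ifi207 were picked as familiar members after the values were seen. After Ifi202b and Mndal, the members with the smallest p-values were Xaf1, an antagonist of an apoptosis inhibitor (3.29, 4.84 and 6.54 CPM against 19.5, 21.1 and 25.8, 2.13 ± 0.16), and Ifi27, a mitochondrial interferon-induced protein (19.9, 30.7 and 55.5 against 85.2, 108 and 117, 1.63 ± 0.18). The GTPase Irgm2 had 26.4, 60.7 and 71.5 CPM against 53.8, 72.4 and 84.6, a difference of 0.35 ± 0.23 that did not pass (edgeR adjusted p = 0.277), with its lowest value in C57BL/6J replicate 1.

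The 5 members that were lower included 4 of the Ifi200 cluster of DNA sensors, which lie next to each other. Mndal was measured at 10, 11.4 and 12.2 CPM in C57BL/6J and at 0.565, 0.829 and 0.965 in DBA/2J (-3.83 ± 0.21). Ifi204 (-1.49 ± 0.20), Ifi207 (-1.24 ± 0.20) and Ifi203 (-0.47 ± 0.12) were lower with no overlap between the groups. Ifi202b of the same cluster went the opposite way: it had no count in any C57BL/6J library and 6.84 to 9.02 CPM in DBA/2J, at least 557-fold higher against 3 counts over the group. Reads of these close relatives may be shared, so the values of single members are uncertain. The fifth was Bst2, or tetherin, which holds budding viruses at the membrane (13.5, 21.1 and 28 CPM against 10.5, 13.7 and 20.2, -0.53 ± 0.16). Its groups overlapped.

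The promoters of 5 of these genes are shown because they hold the letters of the interferon-stimulated response element in genes that went in both directions. The sequences are the 250 bases before the start, read in the direction of transcription, from RefSeq's table for GRCm38.p6, a C57BL/6J reference. Capitals mark matches to GAAA, any 2 bases and GAAA, or on the other strand TTTC, any 2 bases and TTTC, overlapping matches included. Sequence of DBA/2J was not used here.
Ifit1 (chr19:34640639-34640888, plus strand): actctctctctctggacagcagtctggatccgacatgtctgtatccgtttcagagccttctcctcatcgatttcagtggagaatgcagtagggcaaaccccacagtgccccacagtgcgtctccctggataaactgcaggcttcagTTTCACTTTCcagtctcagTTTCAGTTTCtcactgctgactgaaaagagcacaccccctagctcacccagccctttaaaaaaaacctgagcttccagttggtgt
Isg15 (chr4:156200819-156201068, minus strand): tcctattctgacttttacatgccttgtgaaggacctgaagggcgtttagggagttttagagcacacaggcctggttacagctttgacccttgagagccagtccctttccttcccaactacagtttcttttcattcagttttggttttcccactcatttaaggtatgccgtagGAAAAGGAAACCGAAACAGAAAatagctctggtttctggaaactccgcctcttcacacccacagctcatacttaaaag
Oas1a (chr5:120907526-120907775, minus strand): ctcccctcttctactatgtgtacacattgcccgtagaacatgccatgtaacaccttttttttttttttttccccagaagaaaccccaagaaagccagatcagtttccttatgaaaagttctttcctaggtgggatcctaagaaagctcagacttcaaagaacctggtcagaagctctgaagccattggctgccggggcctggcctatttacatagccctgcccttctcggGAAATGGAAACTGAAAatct
Mndal (chr1:173880188-173880437, minus strand): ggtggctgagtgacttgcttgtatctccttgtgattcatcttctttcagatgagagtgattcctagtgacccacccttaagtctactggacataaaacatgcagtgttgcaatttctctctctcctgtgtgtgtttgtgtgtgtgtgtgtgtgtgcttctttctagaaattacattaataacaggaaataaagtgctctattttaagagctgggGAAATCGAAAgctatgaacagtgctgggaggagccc
Bst2 (chr8:71537473-71537722, minus strand): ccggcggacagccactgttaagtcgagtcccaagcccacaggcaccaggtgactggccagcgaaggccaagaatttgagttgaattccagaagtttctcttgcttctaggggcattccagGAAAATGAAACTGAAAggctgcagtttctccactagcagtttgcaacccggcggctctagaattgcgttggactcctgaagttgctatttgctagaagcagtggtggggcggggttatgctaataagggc
Ifit1 has 2 matches, of which the last ends 75 bases before the start, and Isg15 has 3 that overlap. The matches of Oas1a end 4 bases before its start, that of the Mndal promoter shown 26 bases and those of Bst2 114 bases. Another promoter of Mndal, not shown, also holds 1 match, which ends 44 bases before its start. Of 52 members 35 had an entry in the promoter table, and 20 of them held the motif. It was found in 13 of the 24 called increases with an entry. Over all 27025 genes with a promoter of the same length, 3.46% held it. The motif was thus present beside members that were higher and beside Mndal and Bst2, which were lower. A match is a run of letters and says nothing of binding.

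The strains carry different haplotypes of the major histocompatibility complex, b in C57BL/6J and d in DBA/2J, and reads of its class I genes are hard to assign between haplotypes. Of 36 antigen presentation genes tested 14 were higher, beside 13.8% of all genes, and 5 were lower, a share close to the 14.0% over all genes (median 0.16). H2-K1, a classical class I gene, was at 450.1, 502 and 586 CPM against 164, 206 and 251 (-1.32 ± 0.10). H2-T24, a non-classical class I gene, was at 3.82, 5.26 and 7.5 against 16, 16.5 and 18.3 (1.64 ± 0.16). H2-Ea-ps, a class II alpha gene that is not transcribed in the b haplotype, had no count in C57BL/6J and 6.02 to 13.1 CPM in DBA/2J, at least 679-fold higher. B2m, the invariant partner of class I chains, stood at 423, 467 and 519 CPM against 444, 485 and 529 (0.05 ± 0.09, edgeR adjusted p = 0.698). Trim12a, of a cluster of antiviral ubiquitin ligases, was at 7.25, 9.97 and 11.9 CPM against 0.0298, 0.1 and 0.252 (-6.23 ± 0.29).

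Of 38 complement genes tested 18 were higher and 7 lower in DBA/2J, with a median of 0.23, and their sums did not overlap (15783 to 17291 CPM against 18549 to 21112). The complement cascade marks microbes for lysis and uptake, and the liver makes most of its proteins. Against a fold of 1.2 the counts were 8 and 3. C1s2, a copy of the C1s protease gene, was at 0, 0.0138 and 0.122 CPM in C57BL/6J and at 29.6, 31.2 and 37.4 in DBA/2J (9.92 ± 0.32). C4a, the sex-limited protein, was at 4.6, 5.54 and 6.25 against 84.6, 98.3 and 114. Its reads may be shared with C4b, and the sum of C4a and C4b rose from 1278 ± 148 to 1872 ± 162 CPM (n = 6 and 6, exact permutation test, p = 0.00216). Cfhr2, a factor H-related gene, was lower (226 to 306 against 78.4 to 110.1 CPM, -1.41 ± 0.09), as was Hc. Without C57BL/6J replicate 1 there were 4 decreases, and without DBA/2J replicate 1 there were 4 as well.

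The serine protease inhibitors of the Serpina cluster were higher in DBA/2J in 17 of 21 genes tested and lower in 2, with a median of 1.51. These proteins restrain proteases of neutrophils and of clotting. Serpina3c is described above. Serpina11 was at 24.3, 28.6 and 30.6 CPM against 144, 155 and 190.3 (2.53 ± 0.16), and Serpina3m at 271, 355 and 462 against 669, 914 and 1627 (1.51 ± 0.18). Serpina3k, among the most abundant members, was at 2596, 3527 and 5129 against 4836, 7202 and 12662 (1.08 ± 0.24), with overlapping groups. Serpina1d was lower (1466, 1997 and 2419 against 733, 922 and 1361, -1.06 ± 0.12). The alpha-1-antitrypsin genes Serpina1a to Serpina1e are near-identical, and their sum rose from 9622 ± 1036 to 13110 ± 1698 CPM (n = 6 and 6, exact permutation test, p = 0.00216). Of 32 acute phase genes 8 were higher and 1 lower (median 0.35), with sums of 21489 to 27978 CPM against 28684 to 43127. In a fit of the 2 groups alone 16 acute phase genes were higher. Apcs, serum amyloid P, was at 34.9, 65.8 and 70.1 CPM against 191, 234 and 321 (2.10 ± 0.33).

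Major urinary protein genes were higher in 9 and lower in 3 of 21, with a median of 0.21. The share that was lower was close to the 14.0% over all genes. The median lay between 0.08 and 0.71 when single libraries were left out, lowest without C57BL/6J replicate 2 or DBA/2J replicate 6 and highest without C57BL/6J replicate 4. Their sum was 3651 ± 1606 CPM in C57BL/6J and 6656 ± 2782 in DBA/2J (n = 6 and 6, exact permutation test, p = 0.0346, 0.0495 after adjustment over 10 sums), and the groups overlapped. Mup22, one of the most abundant, was at 1392, 1928 and 3786 CPM against 1855, 3263 and 5294 (0.43 ± 0.28, edgeR adjusted p = 0.274). Mup20, the protein darcin, was lower (14.8, 26.6 and 195 against 6.81, 7.63 and 21.8, -2.46 ± 0.42), with the highest value in C57BL/6J replicate 1. Mup15 was at 3.65, 23.8 and 94.5 CPM against 0, 0 and 1.77 (-7.08 ± 1.07). With limma-voom its adjusted p was 0.134. These genes are near-identical, so values of single members are uncertain.

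**Figure D2:**
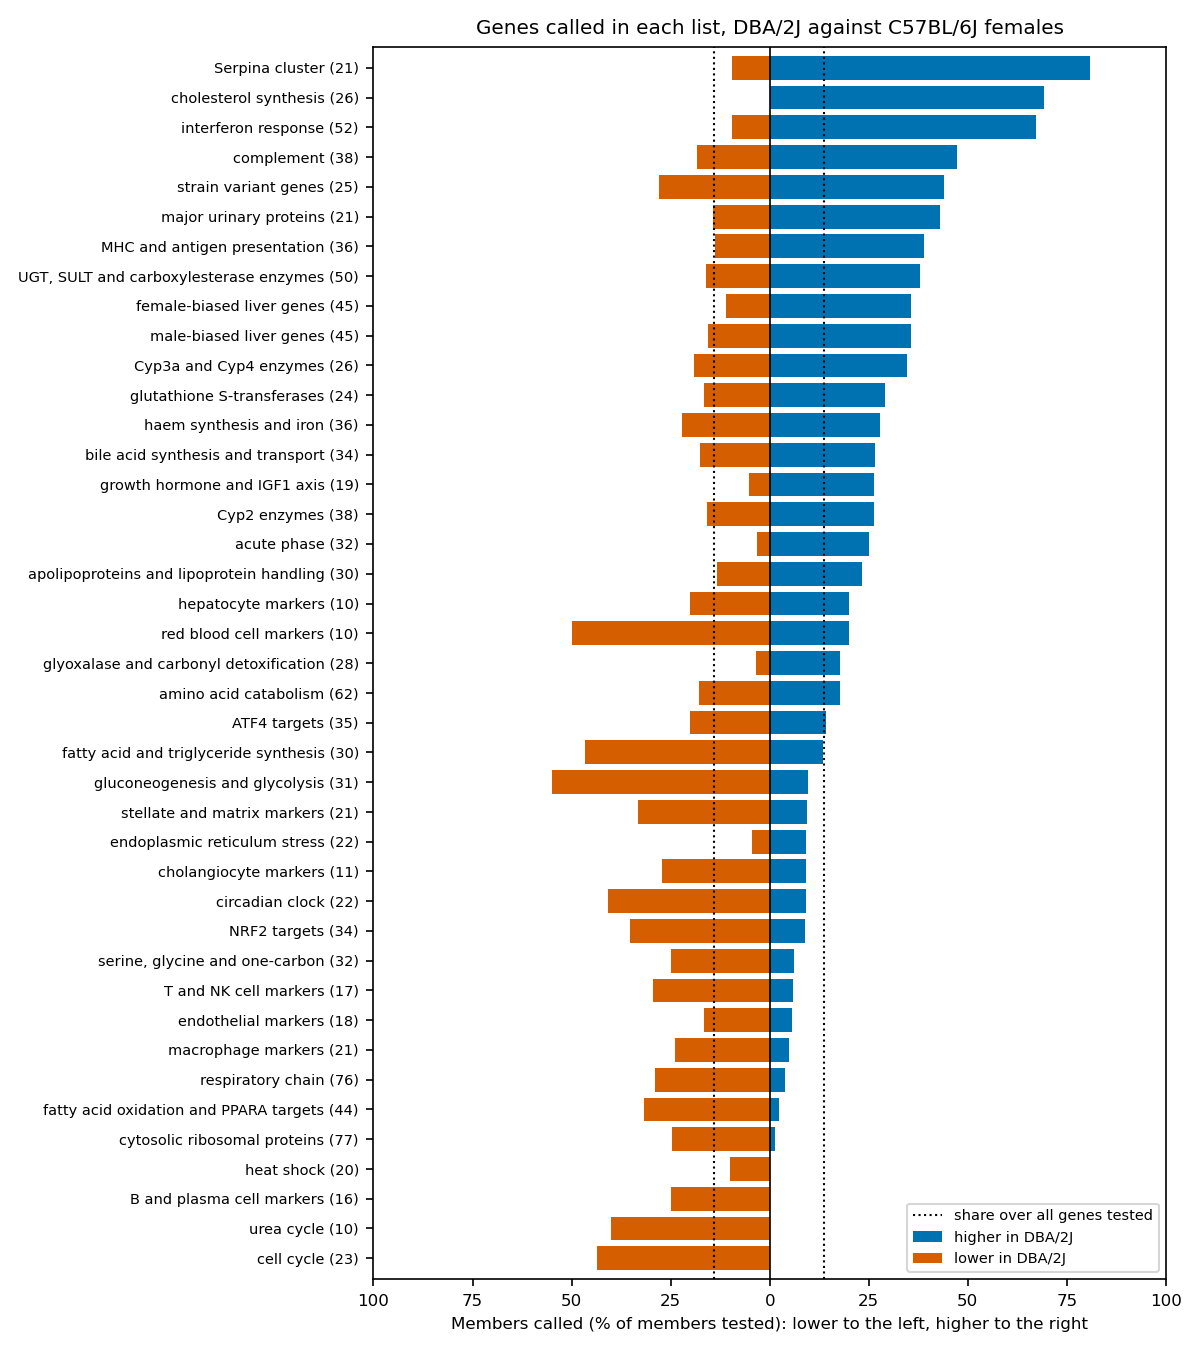
Percent of the tested members of each gene list with at least 10 tested genes that were called lower (orange, to the left) or higher (blue, to the right) in DBA/2J, number tested in brackets, dotted lines at the 14.0% lower and 13.8% higher found over all genes. The Serpina cluster, cholesterol synthesis and interferon response lists reach furthest to the right and gluconeogenesis and glycolysis, with 17 of 31, furthest to the left.

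Genes of drug and steroid metabolism are set beside 13.8% higher and 14.0% lower over all genes. Of 38 genes of the Cyp2 families 10 were higher and 6 lower (median 0.09, and -0.02 without C57BL/6J replicate 1). Of 26 Cyp3a and Cyp4 genes 9 were higher and 5 lower. Of 50 genes that conjugate or cleave (glucuronosyltransferases, sulfotransferases and carboxylesterases) 19 were higher and 8 lower (median 0.14). The shares that were lower in the first and the last of these lists were close to that over all genes. Cyp2c39, a retinoic acid hydroxylase, was at 6.55, 13.5 and 16.9 CPM against 353, 399 and 452 (4.95 ± 0.36). Cyp2c54 was at 20.3, 47.5 and 63.5 against 139.5, 169 and 204 (1.87 ± 0.27). Both were fully separated. Cyp3a44 (3.36 ± 0.45) and the fatty acid hydroxylase Cyp4a32 (3.68 ± 0.24) were higher, and Cyp3a13 was lower (128, 142 and 193 CPM against 21.5, 24.5 and 34.9, -2.55 ± 0.17). Cyp2e1, the ethanol-oxidising P450 and the most abundant member named, was at 2361, 5300.2 and 5811 CPM against 5028, 5471 and 6844 (0.22 ± 0.11, edgeR adjusted p = 0.148), lowest in C57BL/6J replicate 1. The glucuronosyltransferase Ugt1a9 was at 29.8, 57.8 and 96.9 CPM against 338, 434 and 546 (2.82 ± 0.27).

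Of 34 targets of NRF2, the sensor of oxidants, 3 were higher and 12 lower (median -0.23). With library totals as scaling 6 were lower, and 7 were lower with no filter, without C57BL/6J replicate 3 or without DBA/2J replicate 4. Gclm, of glutathione synthesis (-0.57 ± 0.10), and Abcc2, an exporter of conjugates (544, 674 and 709 CPM against 358, 399.6 and 544, -0.64 ± 0.08), were lower. Of 24 glutathione S-transferase genes 7 were higher and 4 lower. Without C57BL/6J replicate 1, and also without replicate 2, 4 were higher. Gsto1 was lower (-0.72 ± 0.10). Of 36 genes of haem and iron handling 10 were higher and 8 lower. Hfe, whose loss causes iron overload, was lower (27.5 to 33.2 against 16.8 to 23.4 CPM, -0.56 ± 0.08).

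Many liver genes differ between the sexes, and growth hormone, released in pulses in males and more evenly in females, sets most of these differences. Of 45 female-biased genes 16 were higher and 5 lower in DBA/2J females, and of 45 male-biased genes 16 were higher and 7 lower (medians 0.29 and 0.31). The shares that were lower were close to the 14.0% over all genes, and those that were higher exceeded the 13.8%. Sult2a6, a sulfotransferase of bile acids and steroids, was at 0, 0.0812 and 0.172 CPM against 3.64, 11 and 19.6 (7.09 ± 0.48). Lifr, a cytokine receptor on the male-biased list, was at 168, 192 and 228 CPM against 371, 473 and 572 (1.29 ± 0.15). Of 19 genes of the growth hormone and IGF1 axis 5 were higher and 1 lower (median 0.32), and without DBA/2J replicate 6 there were 8 increases. Igf1 was at 334, 403 and 571 CPM against 546, 567 and 615 (0.48 ± 0.11). Socs2, a feedback inhibitor that growth hormone induces (1.38 ± 0.42), and the transducer Stat5b (0.44 ± 0.09) were higher.

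Cholesterol synthesis genes were higher in DBA/2J females. SREBP2, the product of Srebf2, turns on this pathway when sterols in the endoplasmic reticulum are low, with SCAP as its escort. Of 26 genes tested 18 were higher and none lower, with a median of 0.70. The 6 and 6 libraries overlapped in every one of the 26, while 12.4% of all genes had no overlap. Srebf2 was measured at 16.8, 13.4, 21.7, 20.2, 19.5 and 19.2 CPM in the 6 C57BL/6J livers. The DBA/2J values were 22.2, 33.6, 27.2, 25.8, 35.9 and 19.2 CPM (0.56 ± 0.14). DBA/2J replicate 6 lay within the C57BL/6J range. Scap (0.41 ± 0.10), Pmvk, a kinase of the mevalonate pathway (0.85 ± 0.20), and Acat2, which makes its first intermediate (0.75 ± 0.19), had the smallest p-values with Srebf2.

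Fdps, the farnesyl diphosphate synthase, was at 7.52, 12.5 and 22.1 CPM against 18.1, 35.9 and 78.8 (1.52 ± 0.39). Sqle, squalene epoxidase, was at 4.17, 8.95 and 14.5 against 9.35, 19.3 and 41.4 (1.28 ± 0.40). In both the groups overlapped, and the call for Sqle was lost without DBA/2J replicate 3 (edgeR adjusted p = 0.0710). Fdps and Sqle were picked after the values were seen. The sums of the list overlapped, at 1052 to 1696 CPM against 1237 to 2352. Without DBA/2J replicate 3 there were 11 increases, without C57BL/6J replicate 1 there were 12, and against a fold of 1.2 there were 10. The sterol response element TCACNCCAC (reverse complement GTGGNGTGA) was found in 1 of 18 members with a promoter entry and in none of the 13 called increases with one, against 1.22% of all genes in the table. At that share these promoters are too few to tell a difference, and a match or its lack says nothing of binding.

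Fatty acid and triglyceride synthesis went mostly the other way, with 4 of 30 genes higher and 14 lower (median -0.28). The share that was higher was close to the 13.8% over all genes. Lpin1 is described above. Acaca, acetyl-CoA carboxylase, was at 108, 111 and 118 CPM against 52.9, 66.1 and 78.2 (-0.76 ± 0.11), with no overlap. Gpam, which starts glycerolipid synthesis, was at 130.3, 165 and 216 against 91.5, 101 and 143 (-0.66 ± 0.10). Mlxipl, the glucose-responsive transcription factor ChREBP, was higher (60.4, 75.4 and 88.8 against 108, 122 and 152, 0.75 ± 0.11).

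Fatty acid oxidation genes, targets of the fasting receptor PPARA, were lower in 14 of 44 and higher in 1, with a median of -0.11. Cidec, described above, was one of the 14. Cyp4a14, a fatty acid hydroxylase, stood at 3102, 4999 and 6935 CPM against 3290.2, 3560.0 and 3953 (-0.46 ± 0.21, edgeR adjusted p = 0.0915). It was called as lower in a fit of the 2 groups alone and without C57BL/6J replicate 1. Against a fold of 1.2 there were 6 decreases, and without C57BL/6J replicate 6 there were 9. Fgf21, a fasting hormone of the same programme, was at 5.45, 12 and 16.9 CPM against 5.73, 17.9 and 21.4 (0.50 ± 0.39, edgeR adjusted p = 0.366).

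Gluconeogenesis and glycolysis genes were lower in 17 of 31 and higher in 3, with a median of -0.39. The summed level was 10617 to 13702 CPM in C57BL/6J and 8034 to 10217 in DBA/2J, with no overlap. Gapdh, of the shared middle part of both pathways, was at 517, 549, 598, 513, 490.0 and 546 CPM in the 6 C57BL/6J livers. The 6 DBA/2J values were 224, 248, 193, 216, 215 and 219.7 CPM (-1.29 ± 0.08, edgeR adjusted p = 4.34e-21). Every DBA/2J library lay far below every C57BL/6J library. Slc37a4, which moves glucose 6-phosphate into the endoplasmic reticulum, was lower (124, 143 and 159 against 48.3, 66.9 and 78.6, -1.14 ± 0.15). G6pc, the phosphatase that releases free glucose, was at 194, 276 and 495 against 177, 223 and 437 (-0.23 ± 0.31) and did not pass. Against a fold of 1.2 there were 11 decreases.

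Urea cycle genes were lower in 4 of 10, the other 6 were not called, and the median was -0.31. The cycle turns ammonia from amino acids into urea. Cps1, its first enzyme, was at 5543, 6515 and 8598 CPM against 3268, 4149.9 and 5108 (-0.68 ± 0.18). Ass1 was at 1241, 1582 and 2336 against 662, 948 and 1114 (-0.85 ± 0.21), Asl at 484, 628 and 749.6 against 158, 250.2 and 338 (-1.25 ± 0.25) and Arg1 at 893, 1061 and 1432 against 538, 631 and 794 (-0.78 ± 0.17). In all 4 the strains did not overlap, nor did the summed level of the list (9469 to 13478 CPM against 5431 to 8224).

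Of 62 amino acid catabolism genes 11 were higher and 11 lower (median -0.05), beside 13.8% higher and 14.0% lower over all genes. Gpt2, a mitochondrial alanine aminotransferase, was at 456, 618 and 748 CPM against 155, 239.8 and 259.8 (-1.41 ± 0.17), and Tdo2, which opens the tryptophan ring, at 919, 1069.7 and 1171 against 431, 571 and 669 (-0.90 ± 0.14). Glud1, glutamate dehydrogenase, was higher (474, 583 and 648 against 703, 878 and 955, 0.61 ± 0.09). Of 32 genes of serine, glycine and one-carbon metabolism 2 were higher and 8 lower. Mat1a, the liver synthase of S-adenosylmethionine, was lower (5823, 6732 and 8642 against 3971, 4576 and 5232, -0.59 ± 0.16), as was Mat2a (-0.41 ± 0.08). Pemt, which methylates phosphatidylethanolamine, was higher (0.27 ± 0.07), and Bhmt stood at 0.34 ± 0.24 (edgeR adjusted p = 0.315). Without DBA/2J replicate 4 there were 4 decreases, and without DBA/2J replicate 6 or with library totals there were 5.

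Of 35 targets of ATF4, the amino acid stress factor, 5 were higher and 7 lower (median -0.13). The share that was higher was close to the 13.8% over all genes, and 14.0% of all genes were lower. Without C57BL/6J replicate 3 or 4 there were 2 increases, and without C57BL/6J replicate 2 or 5 or DBA/2J replicate 2, 5 or 6 there were 3. With no filter there were also 3, and against a fold of 1.2 there was 1. Asns, asparagine synthetase, was at 7.43, 0.276, 0.172, 0, 0.49 and 0.237 CPM in C57BL/6J and 0.0508 to 0.112 in DBA/2J (-4.05 ± 0.85). That difference rests on C57BL/6J replicate 1: without it the difference was -1.45, with an edgeR adjusted p of 0.224. Pck2, the mitochondrial PEP carboxykinase (-1.17 ± 0.21), was also highest in that library, and Cebpb, a transcription factor of the stress and fasting responses (-1.06 ± 0.23), was lower too. Without that library 4 targets were lower.

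**Figure D3:**
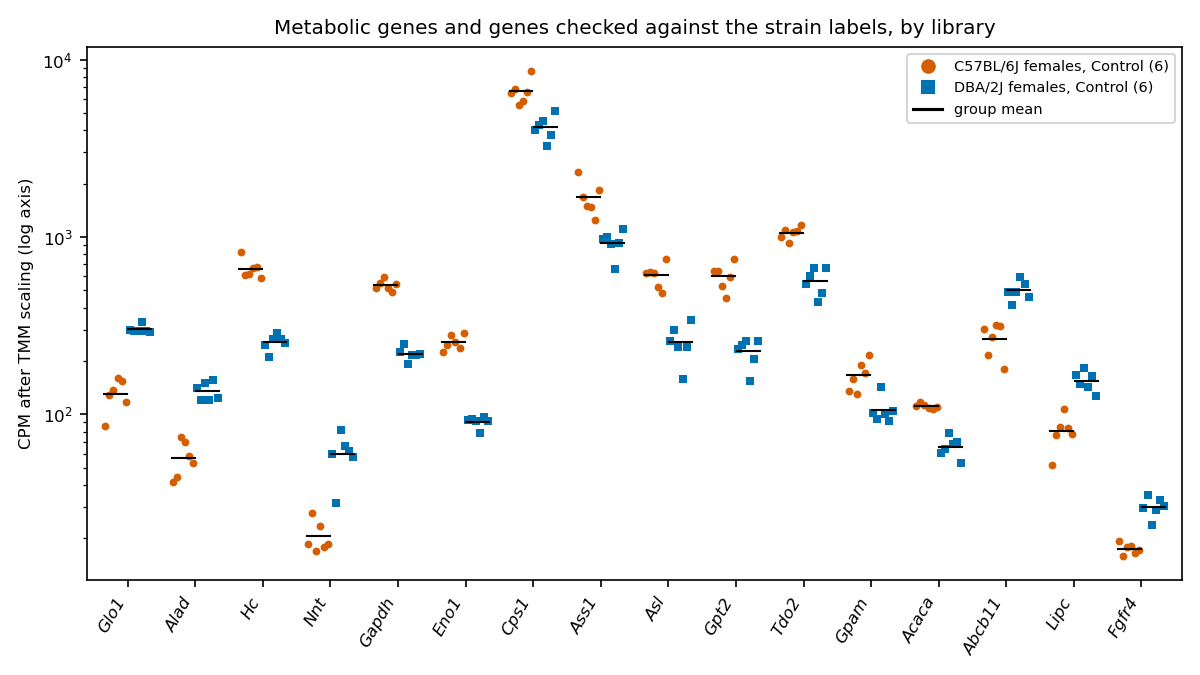
CPM after TMM scaling (log axis) in each library for 4 genes checked against the strain labels and 12 metabolic genes, C57BL/6J as orange circles and DBA/2J as blue squares, bars at the group means. Gapdh lies at 490.0 to 598 CPM in C57BL/6J and 193 to 248 in DBA/2J, Cps1, Ass1, Asl and Gpt2 are lower in every DBA/2J library, and Abcb11, Lipc and Fgfr4 are higher in every one.

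Bile acid genes were higher in 9 and lower in 6 of 34 (median 0.08). Abcb11, the export pump for bile salts, was at 181, 286 and 318 CPM against 415, 491 and 597 (0.90 ± 0.14). Fgfr4, the receptor through which the gut hormone FGF15 represses bile acid synthesis, was at 15.9, 17.5 and 19.3 against 23.8, 30 and 35.2 (0.79 ± 0.10). Both were fully separated, as was Hsd3b7 of the synthesis pathway (0.67 ± 0.10). Cyp7a1, which sets the pace of bile acid production, was at 77.7, 231 and 335 against 359, 425 and 641. The strains did not overlap, and the difference of 1.09 ± 0.45 did not pass (edgeR adjusted p = 0.0615). It was called with DESeq2, in a fit of the 2 groups alone and without C57BL/6J replicate 3. Of 30 apolipoprotein and lipoprotein genes 7 were higher and 4 lower (median 0.14), the latter a share close to the 14.0% over all genes. Lipc, hepatic lipase, was higher (51.6, 80.8 and 107 against 126, 156 and 182, 0.95 ± 0.13), as was Apoh (0.38 ± 0.07). Pltp, the phospholipid transfer protein, was lower (-1.22 ± 0.24), and Apob stood at -0.04 ± 0.06 (edgeR adjusted p = 0.674).

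Of 22 circadian clock genes 2 were higher and 9 lower (median -0.22), and 5 were lower without C57BL/6J replicate 4 or without DBA/2J replicate 6. Usp2, a deubiquitinase with a strong daily rhythm, was at 7.97, 15 and 31.7 CPM against 0.896, 2.1 and 4.42 (-2.93 ± 0.53), and the repressor Per2 at 16.5, 22.5 and 45.8 against 5.97, 8.65 and 16.6 (-1.50 ± 0.33). Clock itself stood at 0.25 ± 0.14 (edgeR adjusted p = 0.182). The hour at which each liver was taken is not given in the sources used here. Of 20 heat shock genes none was higher and 2 were lower (5 without C57BL/6J replicate 1), with Hspa8, the constitutive HSP70 chaperone, at 806, 1159 and 1611 CPM against 469, 598 and 772 (-0.98 ± 0.15). Of 22 endoplasmic reticulum stress genes 2 were higher and 1 lower.

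Nuclear genes of the respiratory chain were lower in 22 of 76 and higher in 3, with a median of -0.13. Cycs, cytochrome c, was at 48.4, 62.9 and 82.8 CPM against 30.2, 36.6 and 49.3 (-0.78 ± 0.13), and Atp5h, of ATP synthase, at 79, 92.8 and 109 against 56, 64.2 and 77.5 (-0.54 ± 0.07). The count depended on scaling and on single libraries: 11 were lower with library totals, 2 against a fold of 1.2, and 13 without C57BL/6J replicate 4, without C57BL/6J replicate 6 or without DBA/2J replicate 5. The 15 transcripts of the mitochondrial genome summed to 214349 ± 11651 CPM in C57BL/6J and 159547 ± 7350.4 in DBA/2J (n = 6 and 6, exact permutation test, p = 0.00216). Most of that sum was mt-Rnr2, a ribosomal RNA and no respiratory chain message. It took 16.0 to 18.8% of all counts in C57BL/6J and 12.5 to 14.4% in DBA/2J. Of 77 cytosolic ribosomal protein genes 1 was higher and 19 lower (median -0.09), 8 of them against a fold of 1.2. Rpl29 (41.8, 51.4 and 58.1 CPM against 9.22, 10.8 and 15, -2.17 ± 0.12) and Rpl21 (80.7, 116 and 139 against 34, 39.4 and 47.2, -1.46 ± 0.08) led them. Ribosomal protein genes have many processed pseudogenes, and reads may be split among them.

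Markers of hepatocytes were high in all 12 libraries: Alb, albumin, took 4.69 to 6.48% of the counts in C57BL/6J and 4.64 to 5.66% in DBA/2J. Its difference was -0.16 ± 0.14 (edgeR adjusted p = 0.437). Of 10 hepatocyte markers 2 were higher and 2 lower. Macrophage markers, some of them specific to Kupffer cells, the resident macrophages of liver, were higher in 1 and lower in 5 of 21 (3 without C57BL/6J replicate 1 or replicate 3, and 2 with limma-voom). Their sums overlapped, at 324 to 845 CPM against 385 to 532. Folr2 (2.37, 4.11 and 9.6 CPM against 0.246, 0.506 and 0.728, -3.23 ± 0.38) and Lyve1 of the endothelial list (7.78, 16.8 and 32.1 against 1.15, 2.44 and 5.43, -2.66 ± 0.43) were lower with no overlap. The Kupffer markers Clec4f (-0.13 ± 0.18) and Cd5l (-0.17 ± 0.28) are named because they did not pass, and they do not stand for the other members. The median of the macrophage list was -0.34. Marco, a scavenger receptor, was at 11, 4.5, 59.9, 2.5, 3.06 and 3.45 CPM in C57BL/6J and 1.32 to 2.44 in DBA/2J, and its call (-3.05 ± 0.85) was lost without C57BL/6J replicate 3 (edgeR adjusted p = 0.166).

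Of 21 stellate cell and matrix markers 2 were higher and 7 lower, 3 without C57BL/6J replicate 1, in which Col1a1 reached 19.6 CPM against 1.92 to 3.86 in the other C57BL/6J livers and 0.567 to 1.57 in DBA/2J (-2.14 ± 0.42). Of 17 T and NK cell markers 1 was higher and 5 lower (3 without C57BL/6J replicate 2 or without DBA/2J replicate 2 or 6), of 16 B and plasma cell markers 4 were lower and of 10 red cell markers 5 were lower and 2 higher. Sums of these 3 lists overlapped between the strains. Sums did not overlap for cholangiocyte markers (74.9 to 121 CPM against 63.5 to 71.1), adipocyte markers (52.7 to 189 against 20.2 to 41.0) and pancreatic acinar markers (2.58 to 3.46 against 7.37 to 12.1). Of the 9 adipocyte markers listed 4 were tested and 1 was lower, and of 10 acinar markers 2 were tested, 1 higher and 1 lower. Cell cycle genes were lower in 10 of 23 (median -0.84), and without C57BL/6J replicate 1 in 4 (median -0.20). The count also moved with the method: 4 were lower with limma-voom, 5 in a fit of the 2 groups alone and 6 with a filter of 1 CPM in 6 libraries. Mcm6, of the replicative helicase, was at 3.01, 3.29 and 4.05 CPM against 0.448, 0.573 and 0.863 (-2.48 ± 0.27), and Rrm2, of ribonucleotide reductase, at 1.74, 2.3 and 3.7 against 0.418, 0.613 and 0.745 (-2.06 ± 0.23). Ccnd1, cyclin D1, was at 39.3, 48.7 and 55.2 against 10.9, 22.6 and 27.6 (-1.20 ± 0.28). These 3 did not overlap. The part of cell composition in any of these differences was not tested.

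The same strain contrast was made in the other 60 libraries, which share no sample with the 12 above but share the estimate of the spread. In females 5133 genes were called on Medium Protein (26.5%, with 13.5% higher and 13.0% lower) and 6410 on Low Protein (33.1%, with 16.3% and 16.8%). In males 5905 were called on Control (30.5%, with 14.9% higher and 15.6% lower), 5577 on Medium Protein (28.8%, with 13.8% and 15.0%) and 6811 on Low Protein (35.2%, with 17.9% and 17.3%). With library totals as scaling the share of calls that were higher was 66.0% in place of 50.8% in females on Medium Protein. In males it was 67.0% in place of 48.9% on Control, 61.4% in place of 47.9% on Medium Protein and 40.0% in place of 50.8% on Low Protein. Of the 5385 genes called in Control females, 3798 were called with the same sign in females on Medium Protein (70.5% of the 5385 and 74.0% of the calls there). In females on Low Protein 3773 were (70.1% and 58.9%), with 6 called in the opposite direction. In males on Control 2880 were (53.5% and 48.8%), with 147 opposite. In all 6 combinations 1823 genes were called with 1 sign (33.9% of the 5385), 933 higher and 890 lower.

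The strain difference itself differed between females and males on the Control diet for 1624 of 19362 genes (8.39%). In 862 it was higher in females (4.45%) and in 762 lower (3.94%), and with library totals as scaling 38.9% of the calls were higher in place of 53.1%. Of the 1624, 515 were called in females alone, 742 in males alone, 147 in both with opposite signs, 153 in both with 1 sign and 67 in neither. Cyp2c40, an arachidonic acid hydroxylase, was higher in DBA/2J females (53.5, 166 and 255 CPM against 356, 421 and 498, 1.41 ± 0.34) and lower in DBA/2J males (-4.13 ± 0.55), a difference between the sexes of 5.54 ± 0.65 (edgeR adjusted p = 2.26e-08). Abcg2, an efflux pump, was lower in DBA/2J females (-1.11 ± 0.12) and higher in males (0.36 ± 0.12). Ank2, an ankyrin, did the same (-0.57 ± 0.15 and 0.98 ± 0.15), and Ndst1, of heparan sulfate synthesis, the reverse (0.39 ± 0.07 and -0.36 ± 0.07). Myo5b, a motor of vesicle recycling, was higher in both, by 0.90 ± 0.06 and 0.18 ± 0.06, with a difference of 0.72 ± 0.09.

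On the Control diet the cholesterol synthesis list went in opposite directions in the sexes. In females 18 of 26 genes were higher, and in males on Control 12 were lower and none higher (medians 0.70 and -0.59). The difference between the sexes was called for 20 of the 26, all in 1 direction, beside 4.45% of all genes. Srebf2 differed by 0.56 ± 0.14 in females and -0.98 ± 0.14 in males (1.55 ± 0.19 between them, edgeR adjusted p = 1.39e-07). For Fdps the values were 1.52 ± 0.39 and -0.54 ± 0.38, and for Sqle 1.28 ± 0.40 and -0.79 ± 0.39. Of the 18 genes higher in Control females 17 were higher on Low Protein, where 22 of the 26 were called, and 2 on Medium Protein. In females the sign was the same in all 18 genes on the other 2 diets. In males on Control 6 of the 18 were lower. In males on Low Protein the list had 6 genes higher and 1 lower (median 0.34), and 15 of the 18 had the sign of Control females, 5 of them called. In males on Medium Protein none was higher and 2 were lower (median -0.09). The difference between the sexes was tested on the Control diet alone.

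Interferon response genes were higher in both sexes. Of the 35 genes higher in Control females, 35 were higher in females on Medium Protein, 34 in females on Low Protein, 31 in males on Control, 29 in males on Medium Protein and 34 in males on Low Protein, and none was called lower. For all 5385 genes called in Control females, the shares called with the same sign were 70.5%, 70.1%, 53.5%, 58.1% and 60.2% in that order. The difference between the sexes was called for 4 of 52 genes, 1 higher and 3 lower in females, a share close to the 8.39% over all genes. Xaf1 differed by 2.13 ± 0.16 in females and 2.59 ± 0.16 in males. Mndal was lower in both (-3.83 ± 0.21 and -3.22 ± 0.21).

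**Figure D4:**
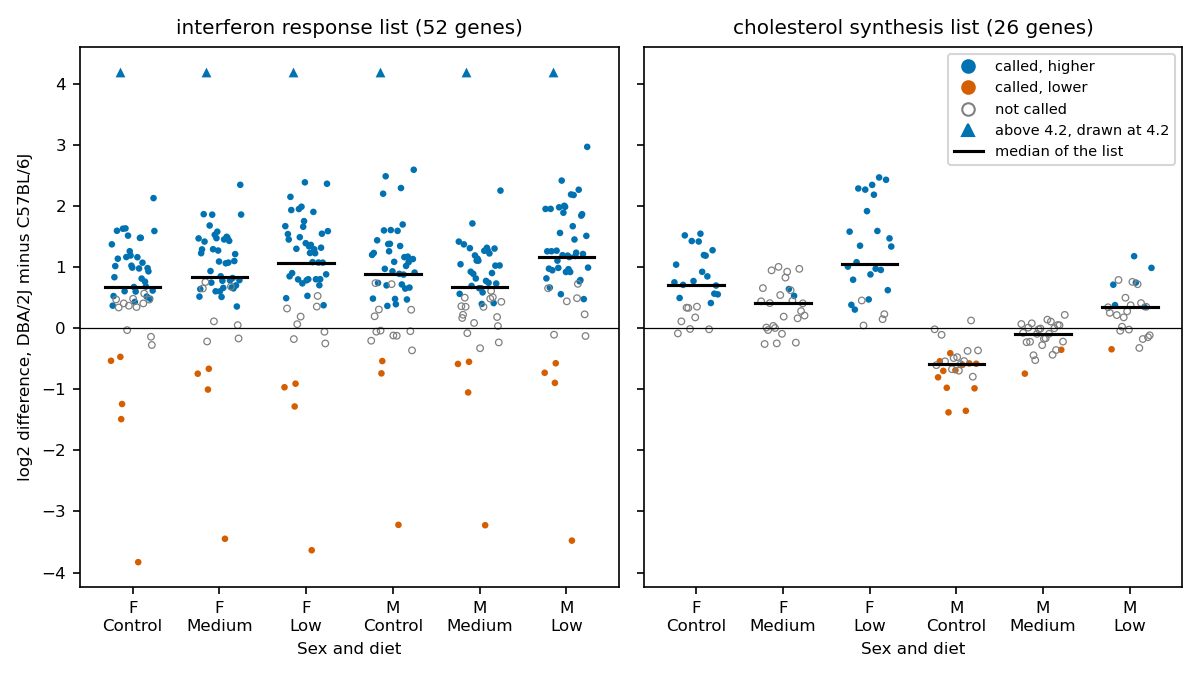
Log2 difference between DBA/2J and C57BL/6J of each gene of the interferon response list (52) and of the cholesterol synthesis list (26) in the 6 combinations of sex and diet, filled where called, bars at the list medians. Interferon medians lie above 0 in all 6, while the cholesterol median is 0.70 in females on Control and -0.59 in males on Control, and 0.34 in males on Low Protein.

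Female-biased genes were higher in 16 and lower in 5 of 45 in females, and higher in 5 and lower in 16 in males. The difference between the sexes was called higher for 16 and lower for 1, beside 4.45% higher and 3.94% lower over all genes. Cyp2b9, a female-biased P450, was at 0.29 ± 0.55 in females and -2.88 ± 0.66 in males. Cyp2c54 was at 1.87 ± 0.27 and -0.76 ± 0.26. Male-biased genes were higher in 25 and lower in 6 of 45 in males, and in 16 and 7 in females, with medians of 0.90 and 0.31. Their difference between the sexes was called higher in females for 2, close to the share over all genes, and lower for 9. Fgf21 was higher in DBA/2J males by 3.14 ± 0.43 and differed between the sexes by -2.64 ± 0.57. Cidec differed by -3.73 ± 0.51 in females and -0.03 ± 0.46 in males. Glud1 (0.62 ± 0.13 between the sexes), Gpt2 (-1.05 ± 0.23) and Tdo2 (-0.68 ± 0.19) also differed. Gm26825 was higher in DBA/2J of both sexes. Urea cycle genes were lower in 5 of 10 in males, with no difference between the sexes called.

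**Figure D5:**
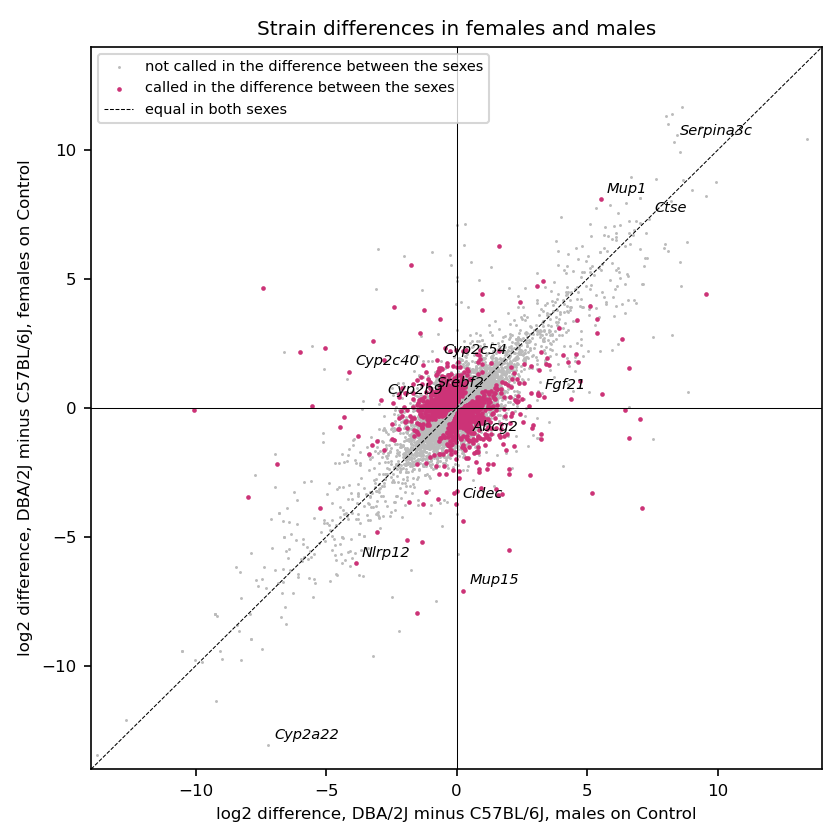
Log2 difference between DBA/2J and C57BL/6J in females (vertical) against males (horizontal) on the Control diet, 1 point per gene tested, coloured where the difference between the sexes was called and dashed where both would be equal. Serpina3c, Ctse and Cyp2a22 lie far out with the same sign in both sexes, and Cyp2c40 lies at 1.41 in females and -4.13 in males.

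Few genes passed the test for a change of the strain difference with diet in females. Between Low Protein and Control 18 genes were called (0.093%), 6 with a higher (0.031%) and 12 with a lower (0.062%) strain difference on Low Protein, while 2147 had an unadjusted p below 0.05. Without C57BL/6J replicate 1 the number was 83, without C57BL/6J replicate 3 it was 40, without DBA/2J replicate 3 it was 36, and with DESeq2 it was 123. With library totals as scaling it was 12, of which 16.7% were higher in place of 33.3%. Prkar2a, a regulatory subunit of protein kinase A, differed between the strains by 0.01 ± 0.05 on Control and 0.49 ± 0.05 on Low Protein (edgeR adjusted p = 9.44e-05 for the change). Slc10a2, the sodium-dependent bile acid transporter, went from -0.53 ± 0.30 to 1.87 ± 0.31. Slc27a1, a fatty acid transport protein, went from -1.62 ± 0.19 to -3.01 ± 0.20, and Cfap54, of the ciliary axoneme, from -0.82 ± 0.24 to -2.59 ± 0.24. Smo, the hedgehog transducer, was at 1.48 ± 0.13 and 0.53 ± 0.13, and Man2a1, a Golgi mannosidase, at -0.25 ± 0.08 and 0.36 ± 0.08. Between Medium Protein and Control none was called by edgeR (0.0%), with 683 genes at an unadjusted p below 0.05 and 5 called by DESeq2. The urea cycle list, lower in 4 of 10 genes on Control, had 1 gene higher and none lower on Low Protein, where Cps1 was at -0.19 ± 0.18 and Ass1 at -0.05 ± 0.21. No urea cycle gene was among the 18.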

How the data were processed

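The authors deposited expected counts per gene from RSEM, 1 column per library, as the labels and the submitters' processing notes give them; these notes also name edgeR, limma and R 3.4.3. Libraries were poly(A)-selected and stranded and were sequenced over 2 lanes, per the labels' protocols. No label or file header names an aligner, genome build or annotation. The table holds 51912 genes, of which 51633 had a symbol in GENCODE or RefSeq names and 279 had none. Columns were matched to samples by the code in each sample's description, and replicates were numbered in accession order.

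Expected counts were rounded to whole numbers (11.6% of values were not whole). Genes of low count were removed with filterByExpr over the 12 groups, leaving 19362. All 72 libraries were fitted together with edgeR 4.0.16 in R 4.3.3, with TMM factors and the quasi-likelihood test, so the 12 groups share 1 estimate of the spread (common biological coefficient of variation 0.207). P-values were adjusted by Benjamini and Hochberg over all genes, with a threshold of 0.05, and SEs are the absolute log2 difference over the root of F. Contrasts were DBA/2J minus C57BL/6J in the 6 combinations of sex and diet, and 3 differences between them. Sums of near-identical genes were compared by a two-sided exact permutation test over 6 and 6 libraries. On simulated counts for this comparison over 18920 genes, 67.2% of genes changed 1.5-fold, 94.0% of those changed 2-fold and 100% of those changed 4-fold were called, with 6 false calls. The changed genes, 67, 67 and 66 in number, were drawn only from genes with a mean of at least 1 log2 CPM. The fitted spread was taken as true, and changes in genes of lower level were not simulated.

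Genes named are the 15 highest and 15 lowest differences, the 10 smallest p-values, the 6 smallest p-values of each interaction, up to 4 called members per list by p-value and 2 members that did not pass, known strain-variant and metabolic genes, and neighbours of a few of these. Genes picked outside these rules are said to be so, and a few genes that the rules name are not reported here. The gene set and the lists were chosen with earlier results of these data known. Alternatives were other scalings and filters, DESeq2 1.42.0, limma-voom (limma 3.58.1), the compared groups alone, a test against a fold of 1.2 and leaving out each of the 12 libraries. The authors' deposited table of diet comparisons was not used here.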

Additional observations from a re-analysis of the deposited data

Results flagged for a closer look

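In 316 groups of 6 libraries, 2 for each of 158 genes, 28 had a highest or lowest library farther from the others than Dixon's 95% limit for 6 values. Chance flags about 1 in 20 groups. Of these, 7 were in C57BL/6J replicate 1, 4 in DBA/2J replicate 4, and 3 or fewer in any other library. Values are CPM.

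A single high library stood out among C57BL/6J females for Cidec at 43.7 (replicate 6, others 8.99 to 19.8), Gpnmb at 8.54 (replicate 1, others 0.0915 to 0.58), Asns at 7.43 (replicate 1, others 0 to 0.49) and C1s2 at 0.122 (replicate 4, others 0 to 0.0294). The same held for Mup20 at 195 (replicate 1, others 14.8 to 42.5), Cyp4a32 at 51.9 (replicate 6, others 17.4 to 27.6), Pck2 at 7.05 (replicate 1, others 2.35 to 3.73) and Folr2 at 9.6 (replicate 3, others 2.37 to 4.3). Further such genes were Marco at 59.9 (replicate 3, others 2.5 to 11) and Col1a1 at 19.6 (replicate 1, others 1.92 to 3.86). A single low library stood out in the same strain for Sae1 at 5.85 (replicate 6, others 7.08 to 7.75), Abcg2 at 21.7 (replicate 1, others 31.9 to 37.3), Cyp2e1 at 2361 (replicate 1, others 4820.1 to 5811) and Bhmt at 3388 (replicate 4, others 4384 to 4818). Among DBA/2J females the high library was for Mup1 at 1493 (replicate 6, others 390.5 to 734), Dct at 23.5 (replicate 4, others 16.6 to 18.9), Lpin1 at 34.1 (replicate 2, others 16.7 to 19.7) and Myo7a at 9.61 (replicate 2, others 6.15 to 6.95). The same held for Cfap54 at 3.3 (replicate 2, others 1.2 to 1.85), Glo1 at 332 (replicate 4, others 289 to 300.2), C1s2 at 37.4 (replicate 3, others 29.6 to 31.3) and Mup15 at 1.77 (replicate 5, the others 0). Further such genes were Mup20 at 21.8 (replicate 6, others 6.81 to 8.66), Abcc2 at 544 (replicate 3, others 358 to 427) and Gpam at 143 (replicate 3, others 91.5 to 105). The low library in DBA/2J was for Tceanc2 at 0.388 (replicate 4, others 0.672 to 0.786), Glud1 at 703 (replicate 6, others 871 to 955) and Eno1 at 78.8 (replicate 4, others 91.7 to 96.6).

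The strain difference differed between females and males on the Control diet, by the interaction term of the edgeR fit at an adjusted p below 0.05, for 37 of these genes. It was higher in females (log2) for Mup1 (2.59), Cyp2c39 (1.62), Dct (1.67), Sfi1 (0.57), Ndst1 (0.74), Srebf2 (1.55), Myo5b (0.72) and Cyp2c40 (5.54). It was also higher for Cyp2c54 (2.62), Cyp2b9 (3.17), Abcc2 (0.40), Glud1 (0.62), Pemt (0.53), Pmvk (1.22), Mlxipl (0.78) and Lipc (0.71). Further genes of this direction were Fgfr4 (0.78), Abcb11 (0.60), Stat5b (0.51), Pm20d1 (0.52), Gm26825 (9.03), Sqle (2.07) and Fdps (2.06). It was lower in females for Rassf4 (-1.17), Nlrp12 (-2.14), Cidec (-3.70), Tsku (-2.11), Abcg2 (-1.48), Ank2 (-1.55), Fgf21 (-2.64) and Mup15 (-7.33). It was also lower for Serpina1d (-0.55), Gpt2 (-1.05), Tdo2 (-0.68), Gpam (-0.49), Ccnd1 (-1.61) and Cycs (-0.71). The fitted sizes for Gm26825 and Mup15 rest on libraries with no count and are no bounds.

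Between Low Protein and Control in females the strain difference changed, by the same test, for Slc27a1 (-1.39), Smo (-0.94), Slc10a2 (2.41), Prkar2a (0.48), Man2a1 (0.61), Cfap54 (-1.77) and Cyp4a32 (-1.45). These are 7 genes, and no gene did so between Medium Protein and Control by edgeR, beside 683 at an unadjusted p below 0.05 and 5 by DESeq2.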

How the results depend on the processing

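No paired analysis was possible because the titles of the DBA/2J and C57BL/6J females compared share no number (numbers recur in other groups, and what they mark is not given). The count of genes that differed between the strains in Control females was 5385. It was 5383 with RLE factors, 5502 with DESeq2, 5464 with limma-voom, 4261 with the 2 groups alone and 2928 against a fold of 1.2, and 4785 to 5313 when single libraries were left out. The count that differed between the sexes (1624) was 1080 with no filter, 363 against a fold of 1.2 and 1212 to 1882 without single libraries. The count between Low Protein and Control (18) was 123 with DESeq2, 6 with the compared groups alone, 7 against a fold of 1.2 and 14 to 83 without single libraries. Between Medium Protein and Control it was 5 with DESeq2 and 0 in the other settings run, including each left-out library. Against a fold of 1.2, which asks for a larger difference, the other combinations gave 2682 in females on Medium Protein and 3567 on Low Protein. In males they gave 3131 on Control, 2973 on Medium Protein and 3672 on Low Protein. The cause of the other moves was not tested. Library totals moved the median of all genes by 0.051, and no scaling moved it by more.

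No called gene named here reversed. Over 158 genes and all settings, a call was lost 17 times in 13 genes and gained 7 times in 3. Against a fold of 1.2, calls were lost for Ndst1, Man2a1, Mat2a, Pemt, Scap, Apoh, Stat5b, Bst2 and Ifi203. Man2a1 was also lost with library totals and without C57BL/6J replicate 6 (edgeR adjusted p = 0.0570). With limma-voom Asns (0.397) and Marco (0.0945) were lost. Xist was called with limma-voom and with the 2 groups alone. Medians of 14 lists moved by more than the spread between libraries 39 times. Those close to 0 changed sign: the strain-variant list under 8 settings, the Cyp3a and Cyp4, glutathione S-transferase and Cyp2 lists without single libraries, and the glyoxalase (-0.04 to 0.01) and amino acid catabolism (-0.05 to 0.00) lists with library totals. T and NK cell markers went from -0.72 to 0.48 with a filter of 1 CPM in 6 libraries, and the median of the 2 pancreatic acinar markers went from below 0 to 1.88, since fewer of them pass it. Depth limits genes below 1 CPM most, where 19.0% were called.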
